A study of Xenopus laevis with 2 samples.

Results

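Chromosome pair 8 of Xenopus laevis consists of chromosome 8L and its homeologous counterpart 8S. Its members were all accessibility peaks placed on either chromosome, 29723 of the 325974 peaks of replicate 1 and 25402 of the 277551 peaks of replicate 2. Together these were 55125 of 603525 peaks, or 9.13%. The pair was selected on these same data as the one with the greatest gap in peak coverage between its L and S chromosome. All values that set 8S against 8L are therefore descriptions, and none was tested.

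The series holds 2 libraries of CATaDa, a method that reads chromatin accessibility from DNA methylation deposited by a free bacterial Dam enzyme. Both came from whole wild-type embryos that received 2.3 ng of Dam-only mRNA as 1-cell embryos and were taken 4.5 h after fertilisation, at 256 cells and before zygotic genome activation. Each replicate pooled 500 embryos. There is 1 group with 2 replicates, Dam was expressed in the whole embryo without any targeting, and all cells of the embryo contribute to each list. Non-injected controls were left out here. The lists hold no read counts, so sequencing depth is unknown and absolute levels were not compared between the replicates.

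X. laevis is an allotetraploid, a frog whose genome joins those of a pair of ancestral species. The chromosomes derived from one ancestor are called L, for long, and those from the other S, for short. The S subgenome has lost more genes and more DNA than the L subgenome, while the order of the genes that both kept is largely shared. Genes present on both are homeologs and carry the suffix .L or .S. Dam methylates adenine in the motif GATC wherever it can reach the DNA, and the methylated sites are recovered by cutting with DpnI. A peak is thus a place where methylated fragments piled up, inside genes, in regulatory DNA or elsewhere.

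8L spanned 135.436 Mb and 8S 103.977 Mb on assembly v10.1, each measured up to its outermost peak or annotated gene. 8S was thus 31.46 Mb shorter, at 0.768 of the length of 8L. The gene table placed 2991 genes on 8L, 2391 of them protein-coding, and 1807 on 8S, 1466 of them protein-coding. Gene spans took up 52.4% of 8L and 47.1% of 8S. The shorter chromosome was therefore also the one with relatively more DNA between genes.

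Peak coverage is given here as the percentage of base pairs that lie inside a peak. It was not corrected for the density of GATC motifs, to which the paper normalised accessibility at promoters, or for how well reads map. On 8L it was 4.91% in replicate 1 and 4.57% in replicate 2. On 8S it was 5.57% and 5.32%. 8S was higher by 0.660 and 0.754 percentage points, a mean of 0.707 ± 0.067 (SD, n = 2), and the lower 8S value lay above the higher 8L value. At the length of 8S the difference amounted to 686 kb of covered DNA in replicate 1 and 784 kb in replicate 2. In each of the other 8 pairs the S chromosome was also the more covered one. Their mean differences lay between 0.120 (pair 5) and 0.354 points (pair 7, the next largest after pair 8).

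The wide gap went with a high 8S, while 8L lay within the range of the other L chromosomes. Of the 18 chromosomes, 8S ranked 1 by coverage, with a mean over replicates of 5.44% against 5.25% for the next, 7S. 8L ranked 12, with a mean of 4.74%. The other L chromosomes ran from 4.52% (1L) to 5.22% (9_10L) in replicate 1 and from 4.20% to 4.86% in replicate 2. Within genes 8S again ranked 1 and 8L ranked 7. Between genes 8S ranked 2, at 5.27% beside 5.28% on 7S, and 8L ranked 17, at 4.55%. The low position of 8L was thus seen mainly outside its genes.

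The higher coverage of 8S came with more peaks and hardly with wider ones. 8L carried 15984 peaks in replicate 1 and 13516 in replicate 2, or 118.0 and 99.8 per Mb. 8S carried 13739 and 11886 peaks, or 132.1 and 114.3 per Mb. Peak number per Mb was thus 1.12 and 1.15 times higher on 8S, and mean width was 1.01 and 1.02 times higher. Mean widths were 416 and 458 bp on 8L and 421 and 465 bp on 8S. The difference of 14.3 ± 0.28 peaks per Mb (SD, n = 2) compares with 2.25 to 6.09 peaks per Mb in the other 8 pairs. Fold enrichment, the height of a peak over the background of the peak caller, had a median of 4.29 and 4.49 on 8L and of 4.40 and 4.54 on 8S. Of the peaks of 8L, 65.7% in replicate 1 and 77.4% in replicate 2 overlapped a peak of the other replicate by at least 1 bp. On 8S these shares were 69.2% and 79.5%.

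The question whether the extra coverage of 8S lies in genes or between them was answered by splitting each chromosome along the union of its annotated gene spans. Within genes, coverage of 8L was 5.07% and 4.74% and that of 8S 5.77% and 5.50%, a difference of 0.706 and 0.759 points. Between genes, coverage of 8L was 4.73% and 4.37% and that of 8S 5.39% and 5.16%, a difference of 0.653 and 0.787 points. Genic and intergenic DNA were thus raised by about the same amount, and the order of these differences was opposite in the replicates. Their means were 0.732 ± 0.038 in genes and 0.720 ± 0.095 between genes (SD, n = 2).

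The total difference can be divided exactly into a part within genes, a part between genes and a part from the unequal genic share of the chromosomes. Genes supplied 0.351 of the 0.660 points in replicate 1, or 53.2%, and 0.377 of the 0.754 points in replicate 2, or 50.01%. DNA between genes supplied 0.328 and 0.396 points, or 49.7% and 52.5%. The smaller genic share of 8S took away 0.019 points in both replicates, since genes were the more covered compartment on both chromosomes. In the other 8 pairs the mean difference within genes ran from 0.086 to 0.393 points and that between genes from 0.105 to 0.338 points.

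**Figure D1:**
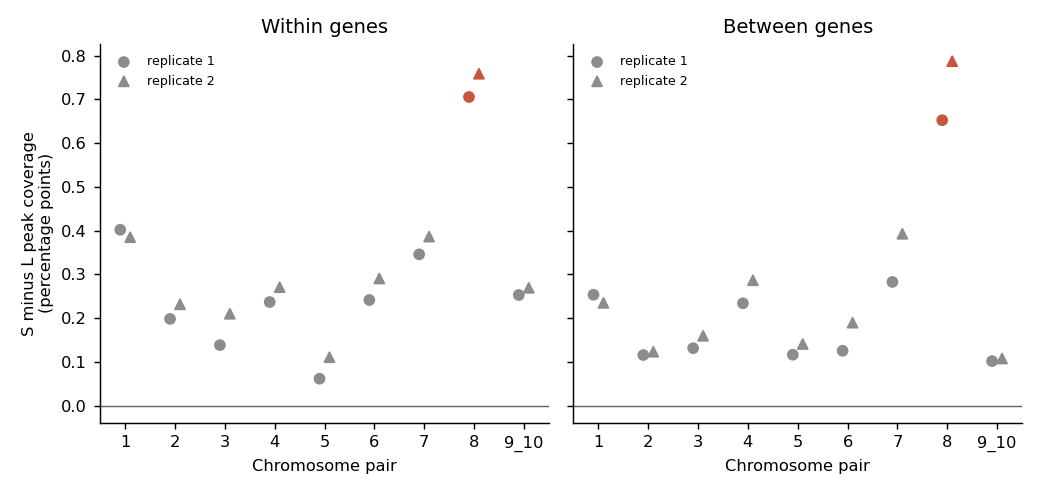
Peak coverage of the S minus the L chromosome, in percentage points (y axis), for each of the 9 chromosome pairs (x axis), within genes on the left and between genes on the right. Circles are replicate 1 and triangles replicate 2, with pair 8 in red; its points lie between 0.653 and 0.787, above those of all other pairs in both panels.

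Cutting the chromosomes into fixed bins of 1 Mb showed how widely the higher coverage of 8S was spread. Of 104 counted bins of 8S, 70 lay above the mean of 8L in both replicates, 30 lay below it in both and 4 were mixed. This share of 67.3% stands beside 49.2% of the bins of the other S chromosomes that exceeded the mean of their own L chromosome, and beside 40.7% of the bins of 8L itself (55 of 135). Since the pair was chosen on the same contrast, the background share is printed for comparison and nothing is read from it. Taking genic DNA alone, 71 of 103 bins of 8S exceeded the genic mean of 8L in both replicates. Taking intergenic DNA alone, 69 of 104 bins exceeded the intergenic mean of 8L. For the other S chromosomes no genic or intergenic share is given, so nothing is read from these counts either.

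Measured against the mean of all 18 chromosomes, 4.96% in replicate 1 and 4.66% in replicate 2, 66 of 104 bins of 8S (63.5%) and 54 of 135 bins of 8L (40.0%) were above in both replicates. Among all bins of the genome the share was 41.8%.

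The lower quartile, the median and the upper quartile of the bins were all higher on 8S, while the single highest bin was on 8L. The median bin of 8L held 4.80% and 4.53%, with extremes of 2.53% and 8.56% in replicate 1 and of 1.99% and 8.88% in replicate 2. The median bin of 8S held 5.52% and 5.40%, with extremes of 3.47% and 7.95% and of 3.26% and 7.53%. 8L therefore had both the lowest and the highest bins of the pair. Bins under 4% numbered 34 and 55 of 135 on 8L (25.2% and 40.7%) and 5 and 12 of 104 on 8S (4.81% and 11.5%). Bins over 6% numbered 22 and 17 on 8L (16.3% and 12.6%) and 38 and 31 on 8S (36.5% and 29.8%). The pair was chosen on this contrast and no such shares are given for the other chromosomes, so nothing is read from these counts.

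Relative to the mean of 8L, 72 bins of 8S had a surplus and 32 a deficit in each replicate. The surpluses added up to 866 kb in replicate 1 and 959 kb in replicate 2, and the deficits to −180 and −174 kb. The 10 bins with the largest surplus held 259 and 264 kb, which is 29.9% and 27.5% of all surplus. Ranked from the top, 39 and 43 bins were needed to add up to the net difference of 686 and 784 kb. The higher coverage of 8S was thus not the product of a few bins. Across bins the replicates ranked the chromosome alike, with a Spearman rho of 0.955 over 135 bins of 8L and 0.954 over 104 bins of 8S. Bins of 1 chromosome share a library and are not independent, so no p-value is given.

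Along 8S the surplus was nevertheless uneven. The stretch from 30 to 60 Mb, 28.9% of the chromosome, held 475 kb of surplus in replicate 1 and 497 kb in replicate 2, equal to 69.3% and 63.4% of the net difference. Its 10 Mb stretches had coverage between 5.99% and 6.64%, and all 34 bins from bin 27 to bin 60 were above the mean of 8L in both replicates. The first 10 Mb of 8S added 103 and 146 kb, and the stretch from 80 Mb to the end added 164 and 185 kb. From 10 to 30 Mb the surplus was 21.6 and 43.1 kb, and between 60 and 80 Mb 8S fell short of the mean of 8L by −77.5 and −86.8 kb. All these values are set against the mean of the whole of 8L. Against the part of 8L with the same genes the picture differed. From 30 to 40 Mb the surplus was 156 and 164 kb, but 8S from 26.3 to 38.7 Mb exceeded its counterpart by only 33.9 and 37.2 kb. From 66.9 to 76.3 Mb 8S was above its counterpart by 0.479 and 0.554 points.

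The 2 chromosomes were built differently along their length. On 8L the first 30 Mb were the most covered, with 5.68% to 6.70% in 10 Mb stretches, and the outer 5.4 Mb at the other end held 5.82% and 5.60%. From 40 to 100 Mb every 10 Mb stretch of 8L was at 3.42% to 4.43%. On 8S the 30 Mb from 30 to 60 Mb were the most covered, and the lowest stretches were 10 to 20 Mb (4.50% and 4.29%), 60 to 70 Mb (4.68% and 4.17%) and 70 to 80 Mb (4.36% and 4.10%). Spearman's rho between the coverage of a bin and its distance from the nearer chromosome end was −0.735 and −0.719 over 135 bins of 8L, and 0.139 and 0.105 over 104 bins of 8S. The fall of coverage away from the ends was thus seen on 8L and not on 8S.

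Low bins also formed a longer run on 8L than on 8S, though neither this run nor the share of low bins was unusual for an L chromosome. The longest unbroken run of bins below the genome mean in both replicates took 22 bins on 8L, bins 39 to 60, with 3.88% and 3.54%. On 8S it took 13 bins, bins 65 to 77, with 4.29% and 3.99%. On the other L chromosomes the longest run took from 8 bins (7L) to 72 bins (3L). In all, 68 of 135 bins of 8L and 31 of 104 bins of 8S were low in both replicates, the last being the smallest share among the 18 chromosomes. The share on 8L, 50.4%, lay between the 40.6% of 9_10L and the 66.2% of 1L, the extremes of the other L chromosomes.

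**Figure D2:**
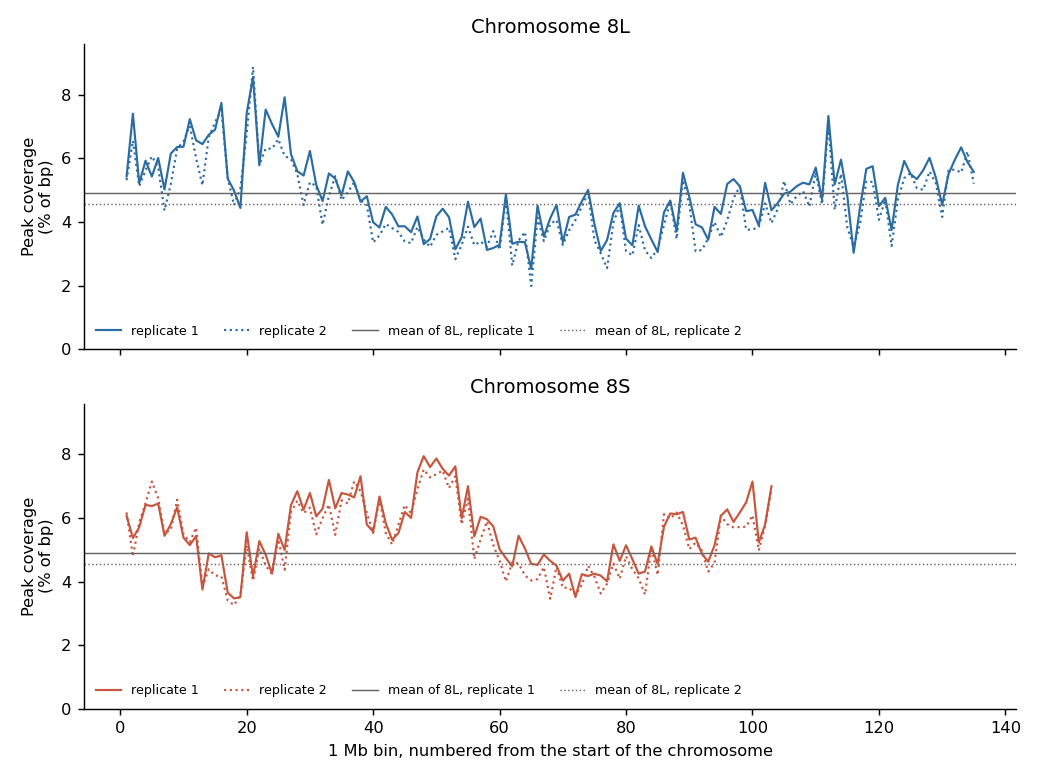
Peak coverage in percent of base pairs (y axis) of each 1 Mb bin (x axis, numbered from the start of the chromosome) on 8L, above, and 8S, below. Solid lines are replicate 1 and dotted lines replicate 2, and the grey lines are the means of 8L, 4.91% and 4.57%; 8S lies above them in every bin from 27 to 60, while 8L lies below them in 54 of the 61 bins from 40 to 100.

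In the 10 Mb stretches, genes and intergenic DNA rose and fell together. Where 8L was high, from 20 to 30 Mb, genes held 6.95% and 6.25% and the DNA between them 6.39% and 5.98%. Where 8L was low, from 50 to 60 Mb, genes held 3.56% and 3.33% and the DNA between them 3.92% and 3.52%. On 8S the stretch from 40 to 50 Mb held 6.39% and 6.30% in genes and 6.88% and 6.64% between them, so that the most covered part of 8S was richer between genes. Genes were the more covered compartment in both replicates in 10 of 14 stretches of 8L and 6 of 11 stretches of 8S. Over bins, coverage was only weakly related to the share of a bin taken by genes, with a Spearman rho of 0.166 and 0.208 on 8L and of 0.291 and 0.283 on 8S.

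The 5 most covered bins of 8S were bins 48 to 51 and bin 53, at chr8S:47000001-53000000 apart from bin 52. Their coverage ran from 7.28% to 7.95%. The top bin, 48, held 7.95% and 7.53% and carries msn.S, which encodes the cytoskeletal linker moesin, and ccnb3.S, a B-type cyclin. Bin 50 held 7.87% and 7.38% and carries kif4a.S, a kinesin of mitotic chromosomes, and dlg3.S, a synaptic scaffold gene. Bin 51 held 7.54% and 7.49% and carries nlgn3.S, a synaptic adhesion gene, and foxo4.S, a forkhead transcription factor gene. Bin 53 held 7.63% and 7.32% and carries the growth factor gene fgf16.S. In these bins genes held 6.87% to 8.20% and the DNA between them 7.33% to 8.13%, so the top of 8S was raised in both compartments. They were not gene-dense, with genic shares of 22.3% to 48.0%.

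The lowest bins of 8S were bins 13, 17, 18, 19 and 72. Bin 18, with the zinc-finger gene bcl11b.S, was the lowest at 3.47% and 3.26%. Bin 19 holds no annotated gene and had 3.51% and 3.58%. The lowest bins of 8L, bins 53, 62, 65, 76 and 77, held between 1.99% and 3.43%.

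The most covered bins of 8L were bin 21 (8.56% and 8.88%, with the LIM homeobox gene lhx6.L), bin 16 (7.75% and 7.53%, with the collagen gene col27a1.L), bin 112 (7.33% and 7.07%), bin 11 (7.24% and 7.02%) and bin 20 (7.42% and 6.77%, with lmx1b.1.L, another LIM homeobox gene). Of these, 4 lie within the first 21 Mb. Bin 112 is set apart by its content of small nuclear RNA genes. These encode the RNAs of the spliceosome, and 71 of the 73 on 8L lie in a cluster at chr8L:111424346-111802076. Peaks covered 11.6% and 10.6% of the cluster, and 44 and 43 of its 71 snRNA genes were touched by a peak. The homeologous genes that flank it, tmem121 and cyp2c8.1, enclose 22 of the 23 snRNA genes of 8S, while 1 snRNA gene of 8S was touched by a peak in each replicate. The span between these flanks held 6.52% and 6.24% on 8L and 4.86% and 4.93% on 8S, opposite to the chromosomes as a whole. Tandem copies of snRNA genes are near-identical, so reads may be shared among them and the values of single copies are uncertain.

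The lowest bin of 8L, bin 65 at chr8L:64000001-65000000, held 2.53% and 1.99%. It lies in the region of the major histocompatibility complex (MHC), which encodes the proteins that present antigens to T cells and many of their helpers. Of 14 genes listed for this region, 8 were found on 8L and 7 on 8S. The listed genes ran from ring1.L to c4a.L on 8L, over 1454 kb with a coverage of 2.70% and 2.42%, and from ring1.S to pbx2.S on 8S. Between ring1 and pbx2, which bound the genes listed on both chromosomes, the region spanned 1329 kb on 8L and 513 kb on 8S. Coverage there was 2.57% and 2.28% on 8L against 5.06% and 4.82% on 8S. Without the span of the listed genes on either chromosome the difference between 8S and 8L was 0.638 and 0.734 points, so the region made up a small part of the whole. The density of GATC motifs and how well reads map were not examined, in this region or on the rest of the pair.

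Among the MHC genes, psmb8.L, an immunoproteasome subunit gene, had no peak in either replicate, and only 0.284% and 0.625% of its gene span with 50 kb on each side was covered. The neighbouring tap1.L and tap2.L encode the peptide transporter of antigen processing. Around tap1.L, which also had no peak, coverage was 1.68% and 1.85%, and around tap2.L 1.45% and 1.88%, with a single peak in replicate 2. The 8 listed genes of 8L ranged from 0.284% to 4.45% and the 7 of 8S from 3.58% to 6.19%. On 8S the peptide-loading gene tapbp.S held 4.81% and 3.58%, the bromodomain gene brd2.S 5.21% and 5.67% and the receptor gene notch4.S 5.56% and 6.19%. The Polycomb gene ring1 went from 1.28% and 1.63% on 8L to 4.52% and 5.86% on 8S. For the 4 listed genes present on both chromosomes the copy on 8S had the more covered surroundings in both replicates, in windows that lie within 1 region. Over all homeologous pairs of the chromosomes this held for 439 of 792, or 55.4%.

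Stretches of 50 kb or more without a peak in either replicate were more common on 8L than on 8S. They are not given for the other pairs, so this contrast is not shown to be particular to pair 8. There were 22 on 8L, which took up 0.990% of its length, and 9 on 8S, which took up 0.509%. Of those on 8L, 6 fell in the MHC span, where they added up to 383 kb, and the longest of all, 87.0 kb, was at chr8L:64835743-64922763. None fell in the MHC span of 8S. The longest on 8S was 87.3 kb, at chr8S:71346588-71433880.

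To compare like with like, 792 homeologous gene pairs were used to match the sequence of 8L with that of 8S. Coverage was measured over each gene with 50 kb on each side. It was higher on 8S in both replicates for 439 pairs (55.4%), higher on 8L in both for 153 (19.3%) and of different sign in the replicates for 200. In the other 8 chromosome pairs the S copy was higher in both replicates for 44.1% of 7006 pairs, with 38.9% to 49.0% in single pairs. Median differences were 0.748 and 0.929 points on pair 8, against 0.027 to 0.394 points in replicate 1 and 0.161 to 0.379 points in replicate 2 on the others. Coverage around a gene on 8S was only loosely related to that around its partner on 8L, with a Spearman rho of 0.350 and 0.304 over 792 pairs whose windows partly overlap.

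The genes fell into 4 largely collinear blocks, which together took up 98.3% of 8L and 98.1% of 8S. Within the first and the second block some runs of genes were in opposite order, with a Spearman rho of gene order of 0.979 and 0.999. The first block joins 8L from 1.03 to 15.6 Mb with 8S from 26.3 to 38.7 Mb, and the second joins 8L from 16.0 to 72.7 Mb with 8S from 39.0 to 87.0 Mb. The third joins 8L from 73.1 to 105.9 Mb with the start of 8S, 0.552 to 26.1 Mb, in opposite order. The fourth joins 8L from 106.3 to 135.4 Mb with the end of 8S, 87.8 to 103.9 Mb. The start of 8L thus corresponds to an inner part of 8S, and an inner part of 8L to the start of 8S. For 792 homeologous genes, coverage on 8S had a Spearman rho of −0.058 and −0.091 with the gene's distance from the nearer end of 8S. With the distance of its partner from the nearer end of 8L, rho was −0.485 and −0.448. Coverage on 8S was thus more closely ordered by where the partner lies on 8L than by where the gene lies on 8S, as a description over genes that share libraries and neighbours.

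**Figure D3:**
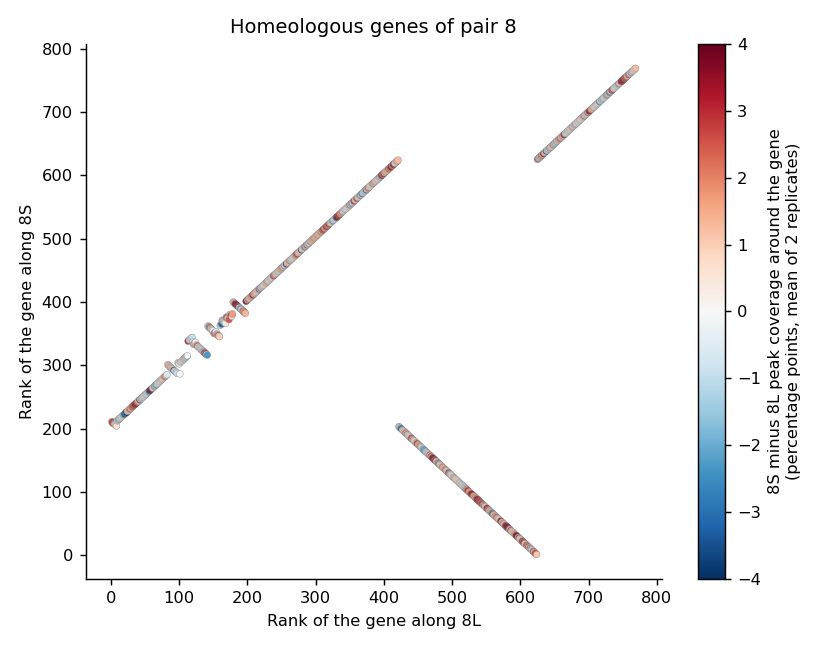
Rank of 769 homeologous genes along 8L (x axis) against their rank along 8S (y axis), coloured by the 8S minus 8L coverage of the gene with 50 kb on each side, in percentage points as a mean over 2 replicates. The 4 largely collinear blocks appear as lines, the third of them running downwards, with some runs in opposite order inside the first and second. Red points, with higher coverage on 8S, occur along every block.

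8S was more covered in every block, though by different amounts. In the first block coverage went from 6.29% on 8L to 6.57% on 8S in replicate 1 and from 5.97% to 6.27% in replicate 2. In the second it went from 4.68% to 5.43% and from 4.35% to 5.13%. In the third it went from 4.27% to 5.10% and from 3.89% to 4.99%, and in the fourth from 5.31% to 5.82% and from 4.96% to 5.53%. The gap, which itself contains the value of 8L, was thus widest in the blocks where 8L was low. Of the surplus summed over blocks, the second held 52.5% and 47.7%, the third 30.6% and 35.9%, the fourth 12.1% and 11.7% and the first 4.88% and 4.72%.

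The blocks with the widest gaps held nearly as many covered base pairs on 8S, or as many, on a shorter sequence. This holds for whole blocks and not for every part of them, since some matched segments described below were longer on 8S. The second block was 15.3% shorter on 8S, while its covered length was 2652 kb on 8L and 2609 kb on 8S in replicate 1 and 2465 and 2463 kb in replicate 2. The third block was 22.1% shorter, with 1399 and 1303 kb and 1274 and 1276 kb covered. In the fourth block, 44.5% shorter on 8S, the covered length fell by 39.1% and 38.1%. The first block was 15.2% shorter on 8S and had 11.5% and 10.9% less covered length.

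Finer matching gave the same sign almost throughout. Stretches of 10 Mb of 8L inside the blocks gave 17 segments with at least 10 homeologous genes, each set against the span of the same genes on 8S, where neighbouring spans can overlap. Coverage was higher on 8S in both replicates in 16 of the 17. The exception joins 8L from 10.2 to 15.6 Mb with 8S from 32.7 to 38.7 Mb, where the difference was −0.159 and 0.067 points. No such count is given for the other 8 pairs, where the S chromosome was also the more covered. Nothing is therefore read from this count or from the segment counts below. Ranked by the mean of both replicates, the widest gap was at 8L from 34.8 to 40.0 Mb, with 4.80% and 4.52% against 6.72% and 6.35% at 49.9 to 57.3 Mb of 8S. 8L from 90.1 to 99.9 Mb, with 4.43% and 3.88% against 5.84% and 5.99% at 3.76 to 10.7 Mb of 8S, came next by the mean and had the wider gap of these in replicate 2, 2.12 against 1.84 points. The segment of 8L from 40.1 to 50.02 Mb held 3.90% and 3.58% against 5.33% and 4.85% at 53.1 to 66.7 Mb of 8S. From 53.1 to 57.3 Mb this span overlaps that of the widest gap, so these segments are not separate cases. The segment with the widest gap was 5.25 Mb long on 8L and 7.39 Mb on 8S. That from 40.1 to 50.02 Mb was 9.93 Mb long on 8L and 13.6 Mb on 8S. The segment from 90.1 to 99.9 Mb was shorter on 8S, 9.82 against 6.93 Mb.

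Segment by segment, genes and intergenic DNA again both carried the difference. Within genes it ran from −0.354 to 1.70 points in replicate 1 and from −0.182 to 2.41 points in replicate 2. Between genes it ran from −0.080 to 2.20 points and from 0.177 to 2.22 points. 8S was higher in both replicates in 15 of 17 segments within genes and in 15 of 17 between genes. 8L was higher in both replicates in 1 segment within genes and in none between genes. In the segment with the widest mean gap the difference was 1.62 and 1.42 points within genes and 2.20 and 2.22 points between them. At 8L from 90.1 to 99.9 Mb the order was the other way round, with 1.63 and 2.41 points within genes and 1.18 and 1.83 points between them.

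**Figure D4:**
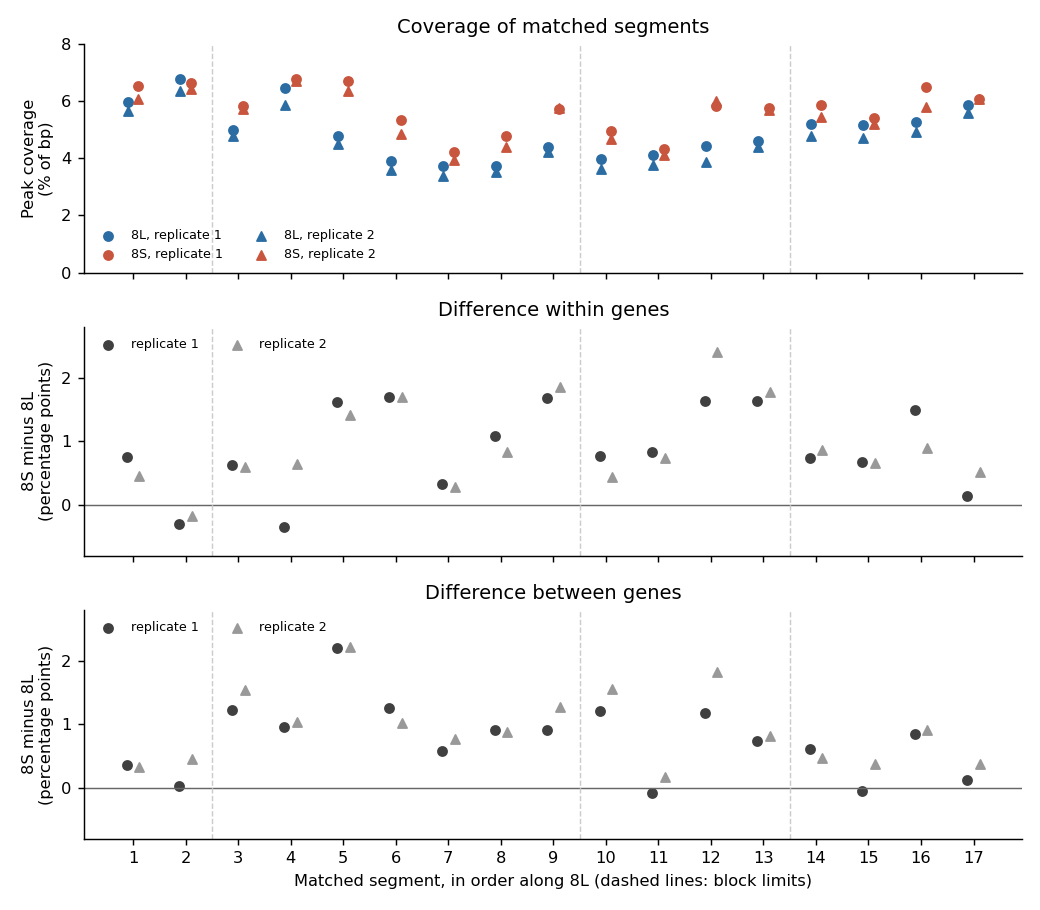
The 17 matched segments in order along 8L (x axis), with dashed lines at block limits. The upper panel gives peak coverage in percent of base pairs on 8L (blue) and 8S (red), the lower panels the 8S minus 8L difference in percentage points within and between genes; circles are replicate 1 and triangles replicate 2, and most differences lie above 0 in both compartments.

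The DNA between neighbouring homeologous genes was followed in 724 collinear intervals. They summed to 92.9 Mb on 8L and 67.8 Mb on 8S, and 453 of them (62.6%) were shorter on 8S. Their coverage was 4.69% on 8L and 5.28% on 8S in replicate 1, and 4.33% and 5.01% in replicate 2. In the 453 intervals that were shorter on 8S it went from 4.89% to 5.40% and from 4.56% to 5.15%. In the 271 that were not shorter it went from 4.15% to 5.13% and from 3.72% to 4.85%. 8S was thus more covered whether or not an interval was shorter there. The difference was 0.512 and 0.589 points in the intervals shorter on 8S and 0.975 and 1.13 points in the others. The spans of the homeologous genes themselves, 26.0 Mb on 8L and 26.4 Mb on 8S, held 4.92% against 5.84% and 4.66% against 5.63%.

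The gene pairs with the most extreme differences sat in local neighbourhoods of this kind. Unless a gene span is named, the values here and in the next paragraph are for the gene with 50 kb on each side. They thus describe mostly flanking DNA. Around the clathrin-adaptor gene picalml, coverage was 3.55% and 2.29% on 8L and 9.005% and 8.943% on 8S. Within the gene span of picalml, coverage was 6.49% and 4.76% on 8L and 5.55% and 7.96% on 8S, of different sign in the replicates. Around dipk1b, which encodes a kinase-like protein, it was 3.17% and 2.41% against 8.59% and 8.55%. The apoptosis-related gene siva1 had 3.83% and 3.16% against 9.01% and 9.40%, and ttc9, a tetratricopeptide repeat gene, had 3.88% and 4.16% against 9.05% and 10.02%. The zinc transporter gene slc39a7 had 1.05% and 1.39% against 6.39% and 6.87%. It lies just outside the MHC span, at chr8L:63767581-63773911 and chr8S:80467833-80475692, and its window reaches into that span on both chromosomes. The gene spans of dipk1b, siva1, ttc9 and slc39a7 were more covered on 8S in both replicates, as their windows were.

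In the opposite direction, the cytochrome P450 gene cyp2c8.1 had 8.89% and 8.62% on 8L and 3.91% and 3.73% on 8S. It lies at chr8L:111819228-111841334, so its window on 8L takes in the end of the snRNA gene cluster. The torsin gene tor1a had 7.10% and 7.40% on 8L against 2.30% and 2.76% on 8S. The neighbours ajm1, a cell-junction gene, and lrsam1, a ubiquitin ligase gene, had 11.4% and 9.38% and 11.2% and 9.67% on 8L against 6.88% and 5.30% and 6.53% and 6.09% on 8S. Their windows overlap, so they are not separate cases. Around the cholesterol transport gene npc2, coverage was 5.99% and 7.11% on 8L against 3.41% and 2.52% on 8S. The gene span of npc2 held 0% and 0% on 8L and 8.13% and 0% on 8S. That of tor1a held 4.45% and 4.50% on 8L and 8.09% and 0% on 8S. In replicate 1 both gene spans were thus more covered on 8S, unlike their windows. The gene spans of cyp2c8.1, ajm1 and lrsam1 were more covered on 8L in both replicates.

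By class of gene, protein-coding genes held 4.96% and 4.62% on 8L and 5.78% and 5.51% on 8S, a difference of 0.819 and 0.891 points. At least 1 peak touched 78.3% and 74.2% of the coding genes of 8L and 83.3% and 80.4% of those of 8S. Coding genes with a homeolog on the pair differed by 0.910 and 0.973 points and named coding genes without a partner of the same symbol by 1.02 and 0.955 points. The higher coverage of 8S was thus seen both in genes named on both chromosomes and in genes named on only one of them.

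The difference was present at all gene lengths. It was 0.682 and 0.765 points in coding genes under 10 kb and 0.957 and 0.956 points in those of 10 to 50 kb. It was 1.02 and 1.14 points at 50 to 200 kb and 0.342 and 0.472 points at 200 kb or more, where there were 31 genes on 8L and 27 on 8S. Outside genes, DNA at 1 to 10 kb from a gene differed by 0.753 and 1.00 points, that at 10 to 50 kb by 0.792 and 0.719 points, and that over 50 kb from any gene by 0.682 and 0.853 points. DNA within 1 kb of a gene differed by −0.123 and 0.429 points, and only there did the replicates disagree in sign. DNA far from genes was the least covered part of both chromosomes, with 4.15% and 3.73% on 8L and 4.83% and 4.59% on 8S.

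**Figure D5:**
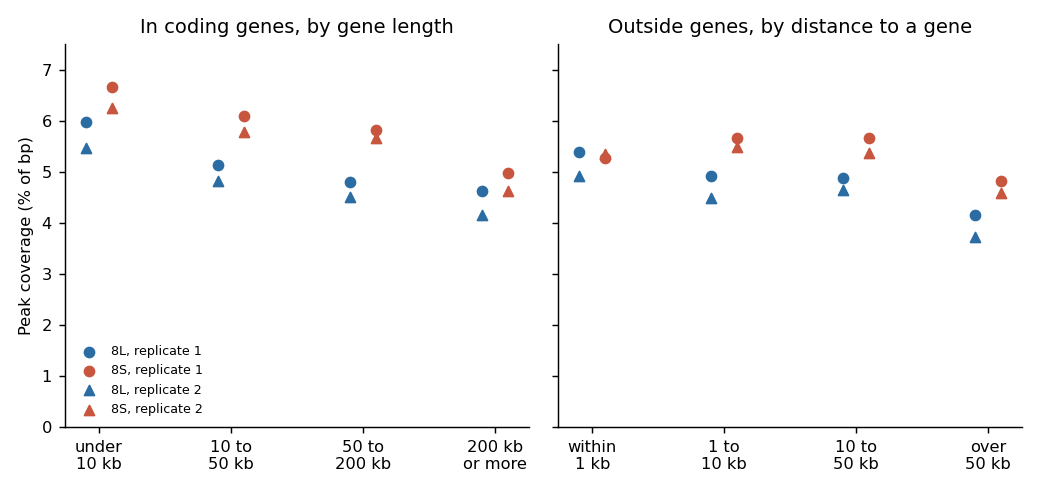
Peak coverage in percent of base pairs (y axis) on 8L (blue) and 8S (red) in protein-coding genes by gene length, left, and in DNA outside genes by distance to the nearest gene, right. Circles are replicate 1 and triangles replicate 2; 8S lies above 8L in each class and replicate except within 1 kb of a gene in replicate 1.

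By base pairs, long noncoding RNA genes and pseudogenes were, in contrast, the more covered on 8L. Genes for long noncoding RNAs held 6.29% and 6.23% on 8L and 5.15% and 4.68% on 8S, a difference of −1.15 and −1.55 points. On 8L, 134 of its 306 lncRNA genes lie in the first 30 Mb and held 8.47% and 8.57%. The 36 in the first 30 Mb of 8S held 4.74% and 4.75%. Beyond the first 30 Mb of each chromosome the difference was 0.659 and 0.199 points. These parts are not matched sequence, since the start of 8L corresponds to an inner part of 8S. The change of sign therefore cannot show where the difference arises. Pseudogenes differed by −1.81 and −1.82 points, although a peak touched 58 and 51 of 117 on 8L and 51 and 50 of 85 on 8S. Transfer RNA genes with a peak numbered 14 and 24 of 72 on 8L and 2 and 1 of 40 on 8S. These short genes make up little sequence, and, as copies of families, they share the uncertainty of the snRNA genes. Among all genes, most of them longer, a peak touched 73.3% and 69.7% on 8L and 76.3% and 73.2% on 8S.

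Several regulators of early development lie on the pair. Of 21 listed genes of early development and histone H3 lysine 4 methylation, 5 were found on 8L and 6 on 8S. The pou5f3 genes, frog relatives of the pluripotency factor Oct4, sit side by side at chr8L:2287556-2308547 and chr8S:27577658-27608214. pou5f3.1.L and pou5f3.1.S each had 2 peaks in both replicates, within the gene and 1 kb on each side. Neither copy of pou5f3.2 had a peak. pou5f3.3.L had none, while pou5f3.3.S had 2 in replicate 1 and 3 in replicate 2. Around pou5f3.1, coverage was 5.49% and 5.93% on 8L and 7.38% and 8.20% on 8S, so these genes lie in surroundings above the mean of their chromosome on both. The first 10 Mb of 8L as a whole held 5.93% and 5.68%, so on 8L these surroundings were much like their stretch. On 8S the stretch from 20 to 30 Mb held 5.53% and 5.27%.

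The SoxB1 factor gene sox3.L had 1 peak in replicate 1 and none in replicate 2, and sox3.S had 1 in each. Its surroundings held 2.38% and 2.98% on 8L and 4.27% and 2.84% on 8S, so the copies did not differ in the same direction in both replicates. The organiser homeobox gene goosecoid, gsc, had 1 peak in each replicate on each chromosome, with 2.98% and 3.97% around gsc.L and 3.58% and 4.32% around gsc.S. The peak at gsc.S began at different positions in the replicates, both outside the annotated gene, with fold enrichments of 2.53 and 3.37. cxxc1.S encodes the CpG-binding subunit of a histone H3 lysine 4 methyltransferase complex. Within the gene and 1 kb on each side, both replicates placed 1 peak, enriched 4.39-fold and 4.97-fold over background. This peak began at chr8S:26213929 in both replicates, before the annotated gene start at chr8S:26214464. Of the surroundings of cxxc1.S, 7.80% and 7.52% were covered.

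The shared peaks of highest fold enrichment were alike on both chromosomes. The highest fold enrichment of a shared peak on 8L was 26.0 and 25.9, at chr8L:38495450-38495796, and on 8S 26.4 and 26.6, at chr8S:10753911-10754257. The widest overlap of a shared peak was 1870 bp on 8L, at chr8L:111701695-111703564 within the snRNA gene cluster, and 1609 bp on 8S, at chr8S:70772103-70773711. All of these lie outside annotated genes.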

How the data were processed

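Peak lists were deposited for 2 CATaDa libraries. The authors cut methylated DNA with DpnI, ligated adapters, digested with DpnII, amplified, sequenced read pairs and mapped them with Bowtie2 (damidseq pipeline) to X. laevis v10.1. MACS3 3.0.1 then called broad peaks separately in each replicate; a control and the cutoff are not given in the sources used here. The deposited peak starts and ends gave all coverage values, and coordinates are counted from 1. The deposited fold enrichment, a ratio of pileup to the caller's background, and the deposited −log10 q served to describe or filter peaks. The lists hold no read counts, so depth is unknown and no counting interval is given.

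Genes came from RefSeq (assembly v10.1, without strand or exons; 44438 genes on 18 chromosomes), and homeologs were matched by symbol with the suffix .L or .S. Overlapping peaks and gene spans were merged before bases were counted. Bins of 1 Mb were counted if at least 500 kb long. Of 792 homeologous genes, 9 out of line with 5 neighbours on each side were left out. Blocks needed at least 20 genes and steps of at most 5 Mb on 8S, which left 769 genes. No sequence was read.

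The named genes were those of the 5 highest and 5 lowest bins of each chromosome (at most 3 each), the 5 homeologous pairs most different in each direction with 1 sign in both replicates, and the gene lists. The named peaks were the widest and highest shared peaks. The members and lists were chosen with earlier results of these data known. Comparisons are given per replicate and as mean ± SD, with no test. The labels give no other group, and whether the replicates came from separate clutches is not stated in the labels. The paper describes its CATaDa replicates as biological and independent. Interval arithmetic (Python 3.11.15, numpy 2.4.6, pandas 2.3.3, scipy 1.17.1) was checked on simulated data.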

Additional observations from a re-analysis of the deposited data

How the results depend on the processing

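Coverage differences between 8S and 8L were recomputed under 13 settings, applied as they fit to whole chromosomes, genes and DNA between genes, which gave 31 values that are not independent. 8S was higher in all 31, and in each replicate where the replicates were measured apart. Base pairs in peaks of both replicates give 1 value instead of 1 per replicate. The pair was chosen on this contrast, so the shared sign was largely set in advance and nothing is read from it. For whole chromosomes, within genes and between genes, the main means were 0.707, 0.732 and 0.720 points. They were 0.458, 0.479 and 0.449 with the upper 50% of peaks by fold enrichment, where fewer peaks are counted. They were 0.563, 0.580 and 0.568 with base pairs in peaks of both replicates, and 0.509, 0.590 and 0.473 without the 10 highest bins of 8S, a choice that lowers 8S alone. With protein-coding genes only, the difference was 0.855 within genes and 0.598 outside them. Settings chosen after seeing the data gave 0.855 for matched segments weighted by their length on 8L and 0.634 for intervals between neighbouring homeologous genes. The difference for lncRNA genes, −1.35 as a mean, was 0.429 beyond the first 30 Mb, also chosen after seeing the data. That cut does not leave out matched sequence on the chromosomes. Without 1 replicate the differences were 0.660 to 0.754 for whole chromosomes, 0.706 to 0.759 within genes, 0.653 to 0.787 between genes, −1.55 to −1.15 for lncRNA genes and 14.1 to 14.5 peaks per Mb. Bins of 8S above the mean of 8L made up 63.5% to 71.2% under the bin sizes, shifts, medians and thresholds tried, and 69.2% without either replicate. Homeologous pairs with higher coverage on 8S numbered 439 of 792 (55.4%) in the main setting. They numbered 345 (43.6%) with the gene span alone and 542 (68.4%) with 200 kb on each side. Without 1 replicate, where only 1 replicate has to be higher, they numbered 529 to 549 (66.8% to 69.3%). In the other 8 chromosome pairs the share was 44.1% in the main setting and is not given for the other settings.

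With 2 replicates and unknown depth the spread is known only roughly, and a peak missing from a list was not detected at that depth. The gene table has no strand or exons, so promoters, exons and introns were not separated.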
